A study of Mus musculus with 8 samples.

Results

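The genes of MHC class I antigen presentation examined here were H2-K1, H2-D1, B2m, Tap1, Tap2, Tapbp, Nlrc5, Psmb8, Psmb9 and Psme1, which are 10 of the 21938 protein-coding genes annotated in the mouse genome. They were chosen by name and role, as the heavy and light chains, the peptide transporter and its loading partner, the inducible proteasome components and the class I transactivator, and the rule used no threshold on a measured value. Each gene was read through the H3K27ac peaks in a window of the gene body and 20 kb either side, in each of 4 breast tumors.

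The study set out to learn how CD4+ T cells stimulated by the cytokine TSLP (thymic stromal lymphopoietin) affect the epigenetic state of mammary tumors. Breast tumors of Balb/c mice were profiled by chromatin immunoprecipitation and sequencing (ChIP-seq) for H3K27ac, an acetylation of the histone H3 tail that marks active promoters and enhancers. The control group was 2 tumors of PyMT;Rag1KO mice and the test group was 2 tumors of K14-TSLPtg;PyMT;Rag1KO mice, and the samples of the control mice are named tumor in the labels while those of the test mice are named cyst. All 4 animals carried the PyMT oncogene, which the MMTV promoter drives in mammary epithelium, lacked Rag1 and therefore made no T or B cells of their own, and received CD4+ T cells by injection at 4 weeks of age. The test animals alone carried a transgene in which the keratin 14 promoter, active in skin and other basal epithelia, drives TSLP. Values of a group are given for its first and then its second tumor, numbers that only name the animals. The tumors were bulk tissue from animals killed at a fixed tumor size or at signs of illness, so fewer cells of a type and less acetylation per cell cannot be told apart.

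MHC class I molecules carry peptides from inside the cell to its surface, where CD8+ T cells read them. The immunoproteasome cuts proteins into peptides, the TAP transporter moves these into the endoplasmic reticulum, and tapasin helps to load them onto a heavy chain paired with beta-2-microglobulin. Interferons raise the expression of nearly all of these genes, in part through NLRC5, and tumors that lose this machinery are poorly seen by CD8+ T cells.

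The peak lists held from 59762 intervals, in test 2, to 69861, in control 1. They covered between 64.3 Mb, in test 2, and 73.1 Mb, in control 1. Intervals carried no height or read count, so the sequencing depth behind them is unknown, and a value here is either the presence of a peak, its width, or the percent of a window that peaks cover (coverage). Of 14 luminal epithelial markers, 13 had a peak at the promoter in all 4 tumors, against 49.6% of all protein-coding genes. Of 11 T cell markers, 1 had a promoter peak in all 4 tumors and 5 had one in at least 1 tumor. The 1 was Gata3, covered to 41.4% and 41.5% in control against 42.4% and 37.4% in test tumors. Which cells carried this peak cannot be told in bulk tissue.

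All 10 class I presentation genes had an H3K27ac peak within 1 kb of their annotated 5′ end in all 4 tumors, against 49.6% of all protein-coding genes. Their summed coverage did not separate the groups. Several windows overlap, so the 10 windows were merged into 7 loci of 438552 bp in all before they were added up. Peaks covered 10.0% and 12.2% of these loci in control against 10.7% and 12.3% in test tumors. The windows also hold the starts of 14 other protein-coding genes, whose peaks count here too. Each group thus held a lower and a higher tumor, and the groups overlapped. The control mean was 11.1% ± 1.53 and the test mean 11.5% ± 1.15 (SD, n = 2 tumors each), a difference of 0.364 percentage points (exact permutation test, two-sided, p = 0.667). With 2 tumors per group that test cannot give a p below 0.333, and nothing in the labels says whether tumors of a group shared a litter or processing day. The difference was −0.721 points without control 1 and −0.447 points without test 2, so its sign rested on single tumors. The loci held 36 and 32 peaks in control against 36 and 39 in test tumors, which gave 34 ± 2.83 in control and 37.5 ± 2.12 in test tumors (SD, n = 2; exact permutation test, two-sided, p = 0.667).

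Only Tapbp had higher coverage in both test tumors than in both control tumors, and no class I presentation gene had lower coverage in both. The Tapbp groups overlapped with windows of 50 kb either side, with gene bodies only, with peaks of at least 1 kb only and with peaks within 1 kb joined. Among the 17253 genes with any peak in their window, 18% were higher in both test tumors and 12.9% higher in both control tumors. Among the 10874 genes with a promoter peak in all 4 tumors, the shares were 20% and 11.6%. The members' 1 of 10 and 0 of 10 were below these shares. The median difference between test and control means was 1.12 percentage points over the 10 genes. Differences were above 0 for 6 genes and below 0 for 4, and ranged from −1.31 to 2.78. Among the 6 above 0, Tap1, Tap2, Psmb8 and Psmb9 share 1 locus. The median and these counts are thus not over separate loci. Over all 17253 genes the median was 0.0537 points, and the range without the outer 2.5% at either end was −4.62 to 3.31, which held every member.

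**Figure D1:**
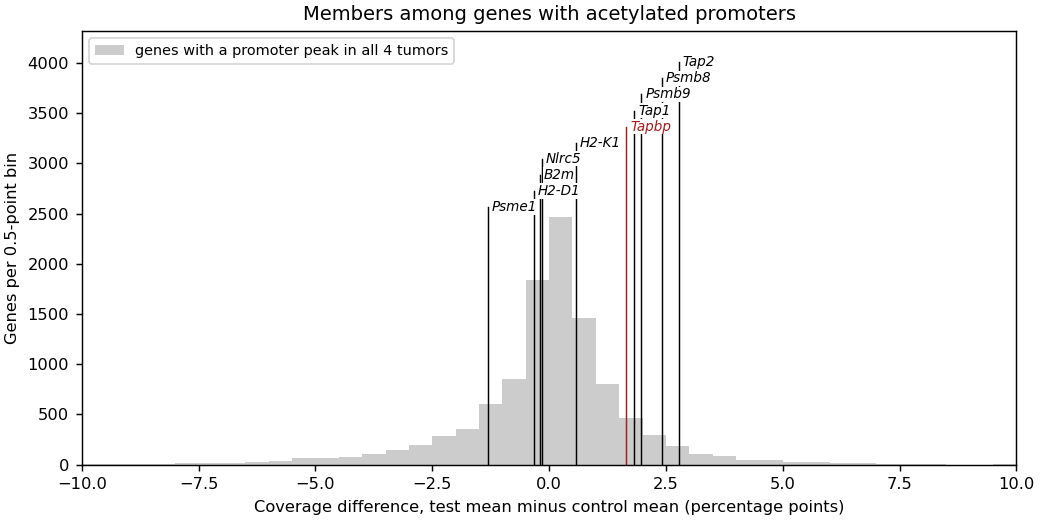
The grey bars count genes with a promoter peak in all 4 tumors by the difference in window coverage between the test mean and the control mean, in percentage points, and each vertical line marks a class I presentation gene. The line heights only separate the names. Tapbp, in red, is the only one whose groups do not overlap, and the lines run from −1.31 (Psme1) to 2.78 (Tap2).

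The tumor with the highest coverage was test 2 for 6 of the 10 genes, control 2 for 3 and test 1 for 1. Over genes with a promoter peak in all 4 tumors, test 2 was the highest for 20.5%. The lowest tumor was test 1 for 6 of the 10 genes and control 1 for 3, whereas over all such genes test 1 was the lowest for 8.92% and test 2 for 42.7%. Most of the class I presentation genes were thus most covered in the tumor with the fewest peaks. Neither count of 6 is a count of separate loci: 4 of the 6 genes (Tap1, Tap2, Psmb8 and Psmb9) lie side by side on chromosome 17. Over the 7 loci test 2 and control 2 were each the highest 3 times, and test 1 and control 1 were each the lowest 3 times. The members' median coverage was 13.6% and 16.7% in control against 13.4% and 20.4% in test tumors, while the median of all genes with a promoter peak in all 4 tumors lay between 6.51% and 7.58%. The 2 test tumors therefore held the lowest and the highest median of the members.

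**Figure D2:**
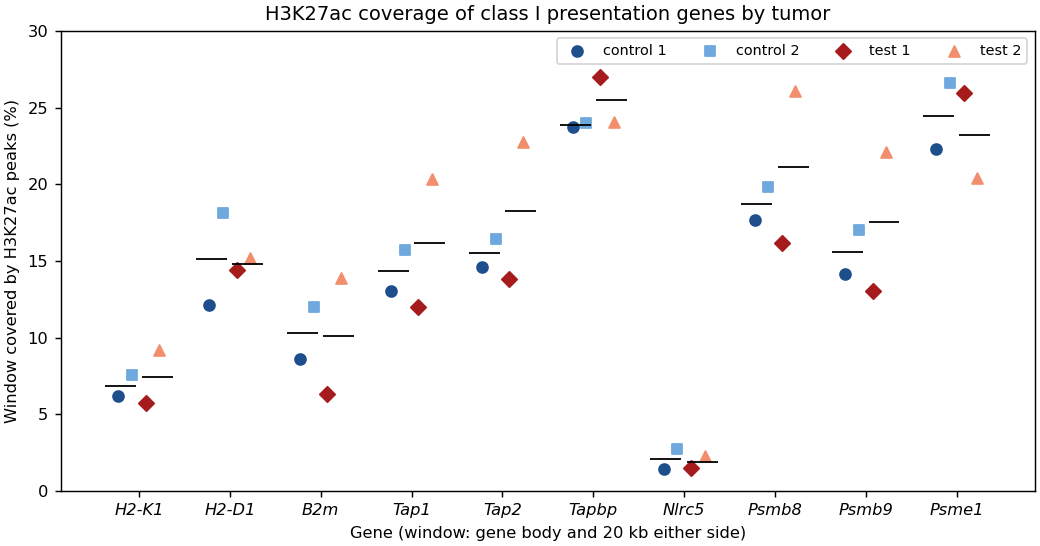
The vertical axis gives the percent of each gene's window covered by H3K27ac peaks, with 1 point per tumor (control in blue, test in red and orange) and a short black line at each group's mean. The test 2 triangle is the highest point for H2-K1, B2m, Tap1, Tap2, Psmb8 and Psmb9, and the test 1 diamond is the lowest point for the same 6 genes.

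H2-K1 and H2-D1 encode classical class I heavy chains of the mouse, the chains whose groove holds the peptide. Peaks covered 6.17% and 7.55% of the H2-K1 window in control against 5.71% and 9.18% in test tumors. The test tumors lay on either side of both control tumors. The peak at its promoter (gene at chr17:33996017-34000347, minus strand) was 1739 and 2107 bp wide in control against 2039 and 2507 bp in test tumors. A peak past the 3′ end of H2-K1 lay outside protein-coding genes, centred 21613 bp downstream of the 5′ end. It covered 998, 1240, 492 and 1562 bp in the same order, again with the test tumors at either end.

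The H2-D1 window was covered to 12.1% and 18.2% in control against 14.4% and 15.2% in test tumors. Here the control tumors enclosed the test tumors, and the means were 15.1% ± 4.27 and 14.8% ± 0.528 (SD, n = 2). The promoter peak (gene at chr17:35262730-35267499, plus strand) measured 1841 and 2944 bp in control against 2293 and 2855 bp in test tumors. A second peak with no protein-coding gene in it, centred at −3965 bp from the 5′ end, was present in all 4 tumors at 1746, 2095, 1605 and 2076 bp. Both H2-D1 peaks were wider in control 2 and test 2 than in control 1 and test 1.

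The 250 bases before the RefSeq starts of both heavy chain genes (GRCm38.p6, the build of the peaks) lay wholly inside peaks in all 4 tumors, and they are printed because the class I promoters share known regulatory elements. Capitals mark matches, on either strand, to an NF-kB consensus, to TGACG (a CRE core), to CCAAT (the core of the Y box, ATTGG when read on the other strand) and to GAANNGAAA, which reads TTTCACTTC here and resembles the interferon regulatory factor core GAAANNGAA. The last pattern was added after the sequences had been seen. The NF-kB capitals hold 2 overlapping matches in each gene, and the RefSeq start of H2-D1 lies within the GENCODE gene.
H2-K1, chr17:34000348-34000597, minus strand: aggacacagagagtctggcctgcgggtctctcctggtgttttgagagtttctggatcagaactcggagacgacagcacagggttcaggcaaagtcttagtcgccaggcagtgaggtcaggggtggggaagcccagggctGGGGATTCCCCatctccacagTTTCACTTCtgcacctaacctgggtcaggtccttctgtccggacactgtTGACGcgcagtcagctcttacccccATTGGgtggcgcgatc
H2-D1, chr17:35262844-35263093, plus strand: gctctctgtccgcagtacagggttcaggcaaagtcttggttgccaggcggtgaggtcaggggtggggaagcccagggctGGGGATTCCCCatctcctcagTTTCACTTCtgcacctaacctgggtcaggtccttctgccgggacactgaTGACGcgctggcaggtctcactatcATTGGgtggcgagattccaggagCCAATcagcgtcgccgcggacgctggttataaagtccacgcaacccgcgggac
In the best local alignment the pair was identical at 161 of 177 aligned positions (91%). The reads were aligned to a reference of the C57BL/6J strain, the mice were Balb/c, and the H2 genes are both polymorphic and repeated. Balb/c mice also carry H2-L, a further classical heavy chain gene that this reference lacks. Within a 4 Mb stretch of chromosome 17 around the H2 genes, 25.1% of the 40-base words in the H2-K1 promoter region and 18.5% of those in the H2-D1 region occurred more than once, against 0 in the promoter regions of Tapbp, Tap1, Psmb9, Psmb8 and Tap2. The H2-K1 and H2-D1 values are uncertain for that reason.

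B2m encodes beta-2-microglobulin, the light chain that every class I molecule needs to reach the cell surface. Its window was covered to 8.60% and 12.02% in control against 6.30% and 13.9% in test tumors. The test tumors were the lowest and the highest, and the means of 10.3% ± 2.42 and 10.1% ± 5.39 (SD, n = 2) differed by far less than either SD. The promoter peak (gene at chr2:122147686-122153083, plus strand) was the widest of the set: 3643 and 4678 bp in control against 2496 and 4077 bp in test tumors. Test 2 also had a peak of 488 bp within a B2m exon and one of 248 bp in an intron of the overlapping gene Patl2 that no other tumor had. A peak of 262, 781 and 747 bp in control 1, control 2 and test 2, in introns of Patl2 and Trim69, was missing in test 1.

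The B2m upstream sequence also lay within peaks in all 4 tumors and is shown for its matches. Capitals again mark the motifs, here with the interferon regulatory factor core as GAAACTGAA.
B2m, chr2:122147437-122147686, plus strand: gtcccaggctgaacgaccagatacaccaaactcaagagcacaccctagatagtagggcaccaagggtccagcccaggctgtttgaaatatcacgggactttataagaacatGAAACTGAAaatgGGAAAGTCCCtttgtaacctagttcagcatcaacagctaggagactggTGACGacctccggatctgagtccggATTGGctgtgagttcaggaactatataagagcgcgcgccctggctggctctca
B2m held the NF-kB consensus, TGACG and CCAAT, as both heavy chain genes did. RefSeq promoters were matched for 8 of the 10 genes, all but Nlrc5 and Tap2. CCAAT occurred in 6 of the 8 (33.8% of 32851 mouse promoters of the same length), TGACG in 5 (17.8%), the NF-kB consensus in 3 (7.25%), GAANNGAAA in 2 (6.31%), GAAANNGAA in 1 (7.13%) and the STAT pattern TTCNNNGAA in Psmb8 alone (7.02%). The Psmb9 and Tap1 windows overlap, so their TGACG and CCAAT matches are the same bases. A match is a run of letters and not evidence that a factor was bound.

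Tap1 and Tap2 encode the chains of the peptide transporter, and Psmb8 and Psmb9 encode interferon-inducible catalytic subunits of the immunoproteasome. The 4 genes adjoin one another in the class II region of chromosome 17, and their windows overlap, so they amount to 1 locus (chr17:34161987-34236321). Its coverage was 10.4% and 11.6% in control against 9.83% and 16.2% in test tumors. Test 1 was the lowest tumor and test 2 the highest, here and for each of the 4 genes.

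**Figure D3:**
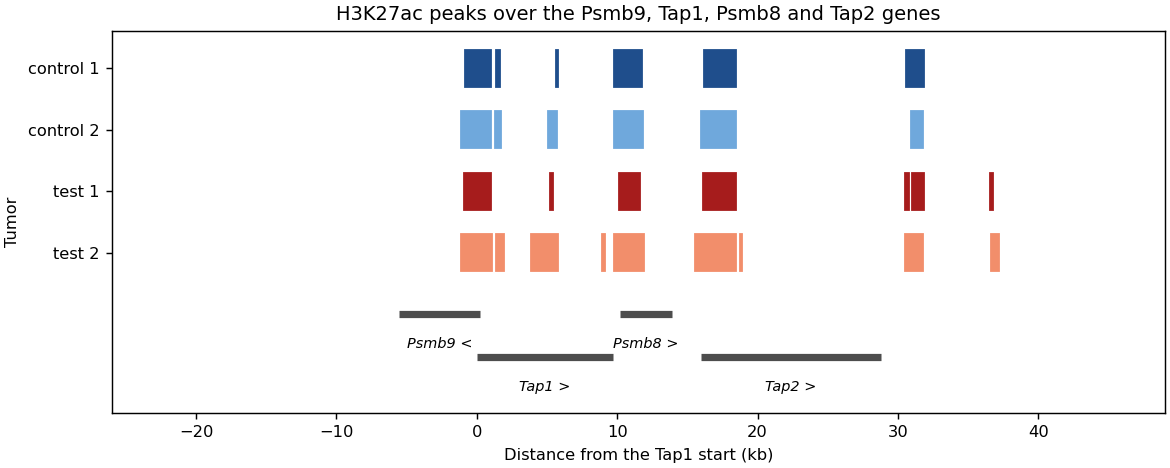
Boxes are H3K27ac peaks in each tumor, drawn to scale by distance from the Tap1 start in kb, above the 4 genes, with < and > for the strand of transcription. The promoter peaks recur in all 4 tumors, the Tap1 gene-body peak is widest in test 2 (1948 bp), and a peak downstream of Tap2 is present in the test tumors only.

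Tap1 and Psmb9 are transcribed away from a shared promoter, and a single peak covered both starts. It was 1796 and 2133 bp wide in control against 1891 and 2225 bp in test tumors. This interval was wider in control 2 and test 2 than in control 1 and test 1. The bases before the Tap1 start lay in it in all 4 tumors, and the CCAAT and TGACG matches within them are in capitals.
Tap1, chr17:34187306-34187555, plus strand: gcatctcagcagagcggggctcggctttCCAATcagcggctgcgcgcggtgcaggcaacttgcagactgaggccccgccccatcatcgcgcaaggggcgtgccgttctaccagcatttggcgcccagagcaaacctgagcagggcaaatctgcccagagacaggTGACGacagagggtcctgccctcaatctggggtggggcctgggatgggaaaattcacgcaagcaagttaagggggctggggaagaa
The Tap1 window (gene at chr17:34187553-34197225, plus strand) was covered to 13.0% and 15.7% in control against 12% and 20.4% in test tumors. Means were 14.4% ± 1.89 and 16.2% ± 5.91 (SD, n = 2). The region that differed most between tumors lay over a Tap1 exon, where peaks covered 189 and 617 bp in control against 238 and 1948 bp in test tumors. That region was thus broad in 1 tumor of the test group and short in the other. The Psmb9 window (gene at chr17:34181987-34187764, minus strand) contains the same Tap1 peaks, and its coverage was 14.1% and 17.03% in control against 13.0% and 22.1% in test tumors, in the same order of tumors.

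The Psmb8 window (gene at chr17:34197721-34201454, plus strand) was covered to 17.6% and 19.8% in control against 16.2% and 26.1% in test tumors. Its promoter peak varied less, at 1989, 2086, 1492 and 2118 bp, with test 1 the only narrow one. The Tap2 window (gene at chr17:34203527-34216321, plus strand) was covered to 14.6% and 16.4% in control against 13.8% and 22.7% in test tumors, the largest difference of means among the 10 genes at 2.78 points. The groups still overlapped, and the SDs of 1.26 and 6.29 (n = 2) show that the test mean rested on test 2. The Tap2 promoter peak measured 2256, 2521, 2341 and 2918 bp. It began 204 bp past the annotated 5′ end in control 1 and 117 bp past it in test 1, but at −21 and −419 bp in control 2 and test 2, so it reached the 5′ end in the latter pair alone.

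The locus held the only test-only region among the member windows, acetylated in both test tumors but not in the control tumors. It spanned chr17:34224100-34224757, between protein-coding genes, with its centre at −14474 bp from H2-Ob, the nearest protein-coding gene start. It held a peak of 226 bp in test 1 and 605 bp in test 2. The 173 bases common to both peaks are shown, since they are the sequence acetylated in both test tumors alone, with 1 CCAAT match in capitals.
Test-only region, chr17:34224153-34224325, plus strand: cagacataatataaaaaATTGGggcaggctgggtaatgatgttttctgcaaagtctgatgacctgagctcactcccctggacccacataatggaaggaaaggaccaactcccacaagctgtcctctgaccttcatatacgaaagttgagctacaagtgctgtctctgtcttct
None of the other patterns occurred in it. Test-only regions made up 1.47% of all 91238 regions in the series, beside 1 of 46 (2.17%) in these windows.

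Tapbp encodes tapasin, which bridges the transporter and the heavy chain during loading. Peaks covered 12681 and 12818 bp of its window in control against 14414 and 12848 bp in test tumors, which is between 23.75% and 24.06% in 3 of the tumors and 27% in test 1. The groups did not overlap, but test 2 exceeded control 2 by little, and the mean difference of 1.65 points came mostly from test 1. The peak at the annotated 5′ end (gene at chr17:33915899-33929292, plus strand), which also covers the start of the zinc finger gene Zbtb22, was 1363 and 1339 bp wide in control against 1851 and 1383 bp in test tumors, in 2 intervals in control 1 and 1 in the others. By this summed width Tapbp was the only member whose promoter peak was wider in both test tumors, against 24.7% of genes with a promoter peak in all 4 tumors. Measured end to end, with the gap included, the peak spanned 1594 bp in control 1, more than the 1383 bp of test 2, and the groups overlapped. None was wider in both control tumors, against 9.76%. RefSeq places the Tapbp start further downstream, under a separate peak of 1600 and 2244 bp in control against 2288 and 2166 bp in test tumors, in which the groups overlapped. The window also held the only control-only region of the set, chr17:33947926-33948291, in an exon of Wdr46, with 240 bp in control 1 and 324 bp in control 2. Control-only regions were 3.41% of all regions, beside 1 of 46 (2.17%) here.

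Psme1 encodes the alpha chain of the interferon-inducible proteasome activator. Its window (gene at chr14:55578123-55581529, plus strand) was covered to 22.3% and 26.7% in control against 25.9% and 20.4% in test tumors, and it was the only gene of the set with its lowest value in test 2. Its promoter peak measured 1595, 2146, 1676 and 1331 bp, with the same tumor lowest. The peak over the starts of Psme2, which encodes the partner chain of the activator, and of Rnf31 varied little, from 2588 bp in control 1 to 2812 bp in control 2. A peak in an exon of Fitm1 covered 964, 1143 and 1285 bp in control 1, control 2 and test 1 but 161 bp in test 2.

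Nlrc5, the class I transactivator, had the least coverage of the set, in a window of 132917 bp (gene at chr8:94434356-94527272, plus strand). Coverage was 1.42% and 2.70% in control against 1.52% and 2.30% in test tumors. Both groups held a low and a higher tumor, and the means of 2.06% ± 0.905 and 1.91% ± 0.554 (SD, n = 2) overlapped. The promoter peak was 1065 and 1835 bp wide in control against 942 and 2036 bp in test tumors, the largest ratio of widest to narrowest among the members, 2.16. An intronic peak centred 9048 bp past the start divided the tumors in the same way, low in control 1 and test 1 (273 and 266 bp) and higher in control 2 and test 2 (1294 and 692 bp).

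**Figure D4:**
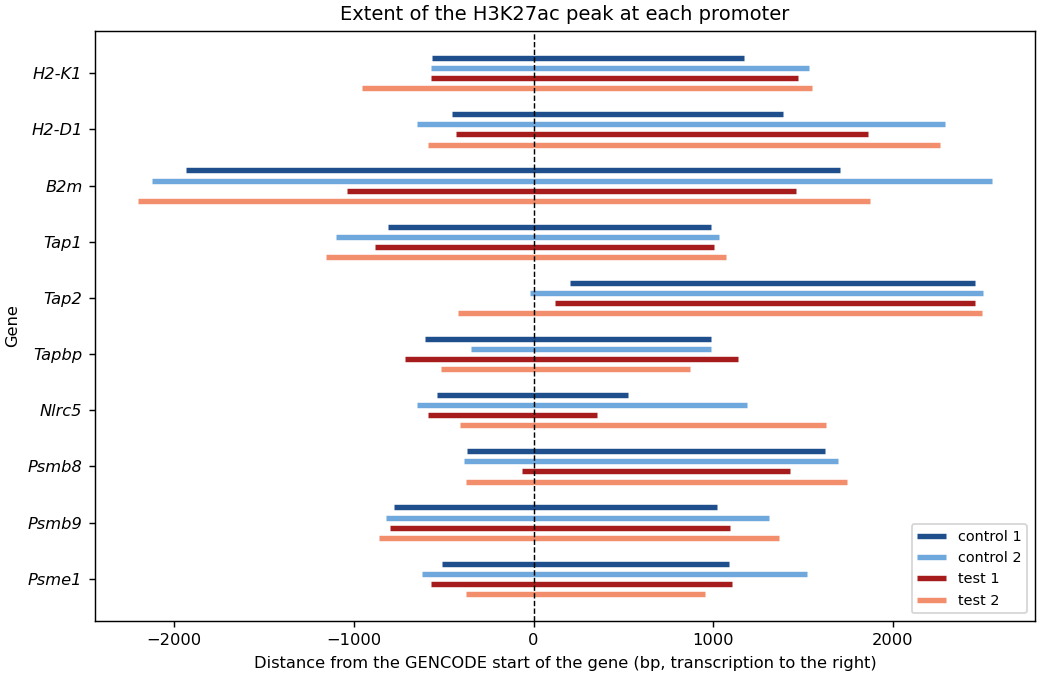
Each bar spans the H3K27ac peak or peaks at a gene's promoter in 1 tumor, by distance in bp from the annotated 5′ end (dashed line), with transcription to the right; the Tap1 and Psmb9 bars are the same peak seen from each start. Measured end to end, as drawn, the widths of control and test tumors overlap for all 10 genes, and the B2m peak, at up to 4678 bp, is the widest.

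Test 2 had the widest promoter peak for 6 of the 10 genes (22.2% of genes with a promoter peak in all 4 tumors) and control 2 for 3 (21.5%). Control 1 had the narrowest for 5, and it was the narrowest for 34% of such genes. Tap1 and Psmb9 share a single peak, which counts more than once in the 6 and in the 5. Over the 10 genes the median width was 1796 and 2133 bp in control against 1891 and 2225 bp in test tumors, and the tumors of both groups interleave. The medians over all genes with a promoter peak in all 4 tumors were 1601, 1671, 1779.5 and 1638 bp. In total the windows held 46 regions, counted after peaks of all tumors were joined where they overlapped. Of these, 24 (52.2%) were present in all 4 tumors, against 38.1% of all regions in the series, and 7 (15.2%) were present in test 2 alone, against 8.84%. All 16 regions over a gene start were present in all 4 tumors, beside 94.3% of such regions in the series. Such regions were 16 of 46 here but 8918 of 91238 in the series, so the shares of 52.2% and 38.1% compare unlike mixes. Of the rest, 3 of 12 in exons, 1 of 9 in introns and 4 of 9 outside protein-coding genes were in all 4 tumors. No member's promoter was acetylated in one group only, a pattern found for 0.533% of genes in control-only and 0.301% in test-only form.

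Of the other genes of class I presentation, 32 could be matched to the annotation, and 6 had higher coverage in both test tumors and 2 in both control tumors, beside 18% and 12.9% of all covered genes. The median difference over this list was 0.320 points, and 27 had a promoter peak in all 4 tumors, against 49.6% of all protein-coding genes. The largest differences among the genes whose groups did not overlap were those of H2-T23, Hspa5 and H2-T24. H2-T23, which encodes the nonclassical molecule Qa-1, was covered to 32.4% and 34.8% in control against 36.5% and 39.6% in test tumors. H2-T24, another nonclassical class I gene, gave 41.8%, 42.5%, 46.6% and 43.9%. These 2 genes are neighbours with overlapping windows and belong to a repeated family, so they are not separate observations. Hspa5, the endoplasmic reticulum chaperone BiP, gave 9.60%, 9.58%, 13.2% and 12.4%.

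Among 22 regulators of class I transcription, 3 had higher coverage in both test tumors and 6 in both control tumors, beside 18% and 12.9% of all covered genes. The median difference was 0.295 points. Irf1, an interferon-induced transcription factor, had the largest difference among those whose groups did not overlap: 48.7% and 54.1% in control against 43.3% and 41.2% in test tumors. Ifngr2, a chain of the interferon gamma receptor, was covered to 22.6%, 18.6%, 17.9% and 10.5% in the same order. The test minus control differences of their means were −9.15 and −6.42 points. Jak1, a kinase that interferon receptors use, was higher in the test tumors, at 8.29% and 2.47% in control and 11.7% and 9.24% in test tumors. Differences of either sign thus occurred within the same list.

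The summed coverage of the myeloid and of the endothelial marker list was lower in both test tumors than in both control tumors, while single markers varied. Of 14 myeloid markers, 7 had lower coverage in both test tumors, none had higher coverage in both and the others overlapped, against 12.9% and 18% of all covered genes. Among the 7, Itgam and Itgax, named after their values were seen, lie close together on chromosome 7 with overlapping windows. These are not separate observations. The summed coverage of the 14 markers was 175 and 167 percentage points in control against 163 and 124 in test tumors. For 10 endothelial markers, 5 lower in both test tumors, the sums were 27.6 and 22.8 against 20.4 and 15.7, with Tie1 at 0 in all 4 tumors. For 10 fibroblast markers, 3 lower in both test tumors, the sums overlapped at 35.6 and 24.8 against 26.6 and 19.8, with Lum at 0. For 8 myoepithelial markers, also 3 lower in both test tumors, they overlapped at 60.7 and 45.0 against 60.1 and 29.0. Itgam and Cd74 (myeloid), Pecam1 (endothelial) and Dcn (fibroblast) kept a promoter peak in the control tumors and lacked it in the test tumors, a pattern of 0.533% of all genes. Of the 14 myeloid markers, 6 had a promoter peak in all 4 tumors, against 49.6% of all protein-coding genes. The 11 T cell markers, 4 higher in both test tumors and 3 in both control tumors, gave 79.6 and 77.3 against 82.7 and 71.1. Of those 4, Cd3e, Cd3d and Cd3g, named after their values were seen, adjoin on chromosome 9 with overlapping windows and no promoter peak, so they amount to 1 locus, and the sums count peaks shared by neighbouring windows more than once. Gata3, also named after its values were seen, alone gave 41.4 and 41.5 points of the T cell sums in control against 42.4 and 37.4 in test tumors. The 14 luminal markers, 4 higher in both test tumors and 0 in both control tumors, gave 447 and 411 against 449 and 431. The sums overlapped in both of these lists. B and NK cell markers gave 47.5 and 42.0 against 48.4 and 43.7, with Cd79b and Ncr1 at 0. Markers of hepatocytes and neurons, which a mammary tumor should lack, gave 14.6 and 19.9 against 16.7 and 15.6, with Alb, Cyp2e1 and Snap25 at 0. In this list 1 gene, Gfap, had a promoter peak in all 4 tumors (185, 934, 370 and 321 bp) and 1, Syp, had higher coverage in both test tumors, so peaks at such genes were not absent; both were named after their values were seen. Test 2, where 6 members were most covered, had the lowest sums for myeloid, T cell, endothelial, fibroblast and myoepithelial markers. It also had the lowest sums for the class I regulators and for core proteasome genes, lists not chosen to mark a cell type. The part of cell makeup in the members' values was not tested.

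**Figure D5:**
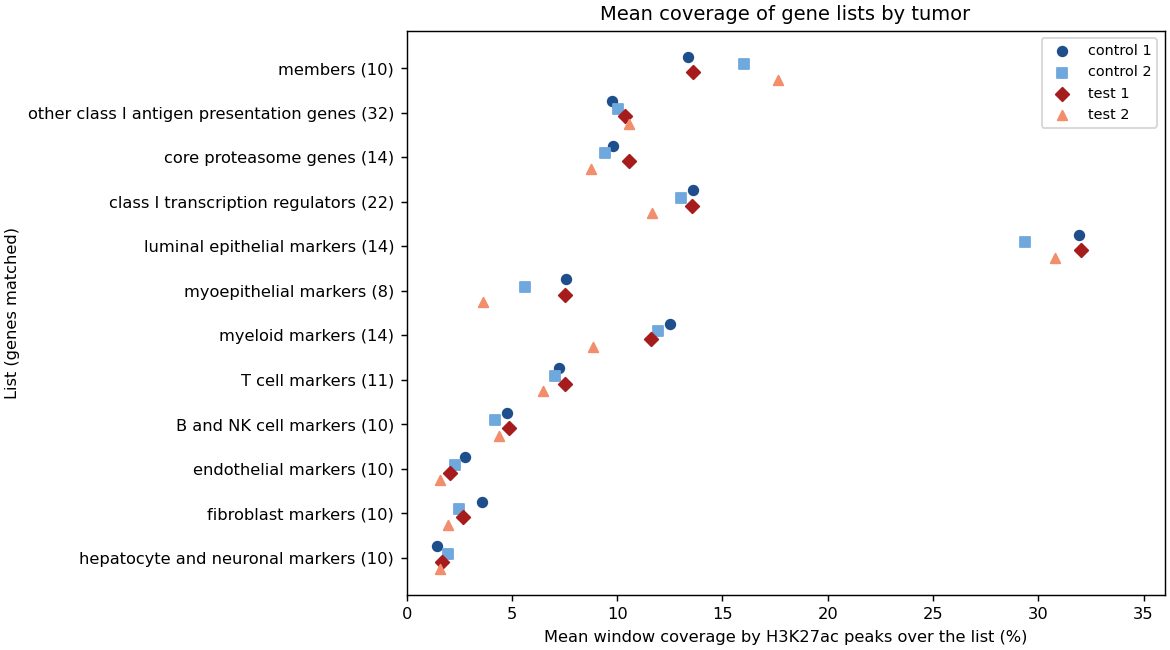
Each point is the mean window coverage of a gene list in 1 tumor, in percent, with the number of genes matched in parentheses; the top line is the class I presentation genes. Test 2 is the highest tumor for the class I presentation genes and the other class I genes, and the lowest for the class I regulators, the core proteasome genes and the myeloid, T cell, endothelial, fibroblast and myoepithelial markers.

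The counts of class I presentation genes depended on single tumors. With 1 tumor left out the call is easier to meet, and no share over all genes is given beside it. Tap1, Tap2, Psmb8 and Psmb9 share a locus, so these are not counts of separate loci. Without test 1, 7 of the 10 genes (H2-K1, B2m, Tap1, Tap2, Tapbp, Psmb8 and Psmb9) were higher in test 2 than in both control tumors and Psme1 was lower. Without test 2, 6 of them (the same genes but Tapbp) were lower in test 1 than in both control tumors. Without control 1, H2-D1, Nlrc5 and Psme1 were lower in both test tumors than in control 2, and without control 2, H2-D1, Tapbp and Nlrc5 were higher in both test tumors than in control 1.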

How the data were processed

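Per the study's methods, the authors immunoprecipitated H3K27ac from tumor tissue cut on dry ice and fixed in formaldehyde, sequenced it on an Illumina instrument, aligned reads with BWA to mm10 and called peaks with MACS2 against the matched input at a q-value of 0.01. The deposited lists hold 1 interval per line with no score, for 4 tumors separately. The 4 inputs had no list here. Intervals never lay closer than 201 bp.

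GENCODE M21 protein-coding genes on 21 chromosomes were used. For each gene, the percent of bases in peaks was computed over the body and 20 kb either side, and promoter peaks were those within 1 kb of the 5′ end (overlap of 1 bp). Genes were called only where both tumors of a group exceeded both of the other. Totals over merged windows were compared by exact permutation. Interval arithmetic (Python 3.11.15, numpy 2.4.6) was tested on simulated data. Members and lists were chosen with earlier results of these data known. Besides the 10 members, the text names list genes with promoter peaks in one group only, the 3 genes with the largest non-overlapping differences in each of the lists of other class I genes and regulators, marker genes with no coverage and the genes that a described region lies in, is nearest to or covers the start of. Cd3e, Cd3d, Cd3g, Gata3, Itgax, Gfap and Syp were named outside this rule. Sequences came from RefSeq GRCm38.p6. Other windows, peak widths, joining, scaling and leaving out each tumor were tried as alternatives. The symbols Trac and Nrdc were not matched.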

Additional observations from a re-analysis of the deposited data

How the results depend on the processing

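The coverage difference of the merged windows stayed above 0 under the 7 changes of window, peak width, peak number, joining and scaling (0.0384 to 1.11 points), and ranged from −0.721 to 1.45 when 1 tumor was left out. The difference in peak number was −5 with 50 kb windows, 0 with peaks of at least 1 kb, −0.5 with peaks within 1 kb joined and 7.01 when scaled to each tumor's total. The count of genes higher in both test tumors was 0 with 50 kb windows, gene bodies, wide peaks or joined peaks, and 1 to 7 with 1 tumor left out. Genes higher in both control tumors numbered 0 to 6 with 1 tumor left out and 0 otherwise. Control-only regions were 0 with 10 kb windows, gene bodies or wide peaks, 7 with 50 kb windows, and 1 to 3 with 1 tumor left out. Test-only regions were 0 with gene bodies or wide peaks, and 1 to 8 with 1 tumor left out. Acetylated promoters in all 4 tumors numbered 8 to 10 throughout. The 8 with RefSeq starts, an alternative chosen after seeing the data, are the 8 genes matched. The cause of these shifts was not tested. No paired analysis was possible because the labels give no replicate numbers. With promoter peaks measured end to end, also chosen after seeing the data, 0 of 10 genes were wider in both test tumors. Depth is unknown, peaks have no height, and 2 tumors per group allow no p below 0.333, so no difference of any size could pass the test.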

Other observations

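A list of 14 core proteasome genes held the subunits that Psmb8, Psmb9 and Psmb10 replace (Psmb5, Psmb6 and Psmb7) and subunits that the immunoproteasome shares with the constitutive proteasome. All 14 had a promoter peak in all 4 tumors, against 49.6% of all protein-coding genes. Of these, 5 had higher window coverage in both test tumors and 4 in both control tumors, beside 18% and 12.9% of all covered genes. Their mean coverage was 9.82% and 9.44% in control against 10.6% and 8.75% in test tumors, with the lowest value in test 2.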
